A study of Homo sapiens with 12 samples.

Results

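The nuclear-encoded subunits of the respiratory chain were examined in Huh7 cells treated with the prolyl hydroxylase inhibitor Molidustat. The members were protein-coding genes picked by symbols used for subunits of complexes I to V. These were NDUFA, NDUFB, NDUFC, NDUFS and NDUFV, SDHA to SDHD, UQCR and CYC1, COX4 to COX8, and ATP5. The rule leaves out the NDUFAF assembly factors and reads symbols, not measured values. The members numbered 91 of the 60666 genes listed: 38 of complex I, 4 of complex II, 10 of complex III, 19 of complex IV and 20 of complex V. Not all are distinct subunits. The readthrough genes NDUFC2-KCTD14 and ATP5MF-PTCD1 are counted as members beside NDUFC2 and ATP5MF, whose bounds they span. ATP5IF1, the inhibitory factor of the ATP synthase, is counted with complex V. NDUFA4 and NDUFA4L2 were counted with complex IV, where the NDUFA4 protein is known to reside. Huh7 is an established cell line from a human hepatocellular carcinoma. Every group was Huh7 in DMEM with 25 mM glucose, and the 4 groups, of 3 libraries each, received DMSO for 24 h, 25 µM Molidustat for 24 h, DMSO for 48 h or 25 µM Molidustat for 48 h. All values therefore describe a single cell line, a single dose and high glucose. The methods speak of biological replicates and the record of triplicate extractions, so an n of 3 may cover technical spread only.

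The respiratory chain passes electrons from NADH (complex I) and succinate (complex II) through ubiquinone to complex III and then through cytochrome c to complex IV, which reduces oxygen. Complexes I, III and IV pump protons, and complex V, the ATP synthase, uses the gradient. Most subunits are encoded in the nucleus and the remainder in mitochondrial DNA. Transcription factors such as NRF1 and those of the ETS family are known to bind the promoters of many nuclear subunit genes. Hypoxia-inducible factors, which Molidustat stabilises, are known to limit respiration in other ways, among them PDK1, which inhibits pyruvate dehydrogenase, and an exchange of complex IV isoforms.

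Promoter letters were looked up because the members' levels were correlated between libraries, and their part in that correlation was not tested. RefSeq promoters (GRCh38.p14, 250 bases before to 50 after the transcription start) were at hand for 71 of the 91 members. The letters GCATGCG, part of the NRF1 site, were found on either strand in 14 of them (19.7%), against 6.1% of 15315 protein-coding genes and 4.74% of all 27305 genes with a promoter, a gene counting once where any of its promoters matched. The letters CCGGAAG of the ETS family were in 29.6% of members and 16.7% of protein-coding genes (12.2% of all genes). For AAGATGGC, part of the YY1 site, the shares were 16.9%, 4.75% and 3.52%. The hypoxia response core ACGTG was in 25.4% of members, 28.7% of protein-coding genes and 24.9% of all genes, and its other form GCGTG in 53.5%, 50.8% and 40.6%. These are matches of letters, not sites bound in these cells. Stretches before a RefSeq start of 4 members whose values are given further on are shown here, read 5′ to 3′ on the strand of the gene, with the NRF1 letters of either strand in capitals. They lie at chr19:1383818-1383855 (plus strand), chr1:17054211-17054247 (minus), chr12:120437879-120437916 (plus) and chr12:53676102-53676139 (minus), in that order. RefSeq can list several starts per gene, and the stretches of NDUFS7 and ATP5MC2 lie within the bounds that GENCODE gives these genes.
NDUFS7: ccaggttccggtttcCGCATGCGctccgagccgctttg
SDHB: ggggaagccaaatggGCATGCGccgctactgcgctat
COX6A1: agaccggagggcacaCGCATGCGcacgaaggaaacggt
ATP5MC2: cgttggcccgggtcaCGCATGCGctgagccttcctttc

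The libraries read the 3′ end of transcripts and held between 1499273 and 9179389 counts on genes. Of the 91 members, 84 passed the filter on low counts and were tested among 14274 genes with edgeR's quasi-likelihood test. A gene was called at a Benjamini-Hochberg adjusted p under 0.05 with a log2 fold change beyond 1. CPM stands for counts brought to the same library size with TMM factors. Counts on copies of a gene are uncertain: 50 members have 189 named pseudogenes, which held 1.77% of the counts on members and pseudogenes together. The library DMSO 48 h replicate 2 stood apart before any comparison. It was the shallowest, its TMM factor was 0.629 against 1.01 to 1.08 in the others, and reads outside annotated genes made up 50.44% of its listed reads, beside 17.08 to 25.64% in the remaining libraries. Its log2 CPM correlated across genes at 0.731 to 0.799 with the other libraries, which correlated with each other at 0.880 to 0.966. Main values at 48 h are given with and without it.

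The cells carried the markers of their labelled origin. All 11 hepatocyte markers, among them ALB, AFP and APOA1, had counts in every library, and they summed to 9328 CPM in DMSO 48 h replicate 2 and to 14140 to 29852 CPM in the other libraries. The 10 markers of blood, endothelial, stromal, glial and muscle cells summed to between 2.13 and 18.4 CPM, from 2 to 83 counts, with CD3E, VWF and DES at 0 in all libraries. LUM, PECAM1 or COL1A2 was the most abundant of them in each library, at up to 9.66 CPM (LUM). At 48 h these 10 markers summed to 7.73, 2.13 and 8.58 CPM with DMSO and to 18.4, 11.6 and 9.96 CPM with Molidustat. Only 3 of them could be tested, and 0 were called at either time by edgeR. By unadjusted p under 0.05 in edgeR, 1 was higher at 24 h (3.73% of all genes) and 0 at 48 h (4.53%). Their median was 0.48 at 24 h and 1.06 at 48 h, with 2 of the 3 positive each time. With all libraries 0 hepatocyte markers were called by edgeR at either time, while 2 were higher with Molidustat at 24 h (3.73% of all genes) and 6 higher and 1 lower at 48 h (4.53% and 8.81%) by unadjusted p under 0.05. Without DMSO 48 h replicate 2, TF (transferrin) was called higher at 24 h (1.27 ± 0.19, edgeR adjusted p = 0.0016) and at 48 h (1.11 ± 0.22, edgeR adjusted p = 0.035), and it was also called at both times without replicate 2 of both 48 h groups. The median of the 11 hepatocyte markers at 48 h was 1.04 with all libraries, 0.68 without DMSO replicate 2 and 0.47 without both. The part of either marker list in the results was not tested. In such bulk RNA, fewer cells of a kind and less RNA per cell cannot be told apart.

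Of 10 HIF-responsive reference genes, 9 could be tested. With Molidustat 8 of the 9 had a positive fold change at each time. Called higher were 6 at 24 h (0.231% of all genes) and 2 at 48 h (0.21%). The count called at 48 h was 4 without DMSO 48 h replicate 2 and 5 without replicate 2 of both groups. The median of the 9 at 48 h was 1.65 with all libraries, 1.71 without DMSO replicate 2 and 2.04 without both. BNIP3, a mitophagy receptor, went from 158 to 1111 CPM at 24 h (log2 fold change 2.81 ± 0.34 SE, edgeR adjusted p = 0.000977) and from 178 to 1144 CPM at 48 h (2.68 ± 0.34, edgeR adjusted p = 0.00149). The glycolytic kinase PGK1 was called at both times (2.80 and 1.99). LDHA, ALDOC, PDK1 and SLC2A1 were called at 24 h, at 2.48, 4.50, 3.60 and 1.98, and had 1.86, 2.82, 1.64 and 1.65 at 48 h without being called. EGLN3 (1.05 and 0.63), LONP1, the matrix protease that degrades COX4I1 (0.99 and 0.55), and HIGD1A, which associates with complex IV (−0.15 and −0.35), were not called, and CA9, at 0 to 3.35 CPM on average, was not tested.

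No respiratory chain subunit was called at either time. At 24 h 0 of 84 members were called higher and 0 lower, where 0.231% and 0% of all genes tested were. At an unadjusted p under 0.05 there were also 0 higher and 0 lower members, against 3.73% and 1.52% of all genes. At 48 h 0 members were called in either direction (0.21% of all genes higher and 0.021% lower), while by unadjusted p under 0.05 there were 8 higher and 1 lower (9.52% and 1.19% of members, against 4.53% and 8.81% of all genes). DESeq2 and limma-voom with sample quality weights also called 0 members at each time. At an unadjusted p under 0.05 both had 0 members at 24 h, where 4.79% of all genes were higher and 2.07% lower in DESeq2 and 5.03% and 2.29% in limma-voom. At 48 h DESeq2 had 12 members higher and 1 lower, against 5.67% and 9.34% of all genes, and limma-voom 3 and 2, against 8.5% and 6.24%. The 95% interval of a fold change reached a median of 0.89 to either side at 24 h and 0.90 at 48 h on the log2 scale. The interval stayed within 1 of 0 for 35 members at 24 h and for 12 at 48 h, so for most members a log2 change of 1 could not be told from none at this depth and spread.

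At 24 h the subunits of all 5 complexes had slightly negative median fold changes. The summed level of the members was 15798, 16713 and 21102 CPM in the 3 DMSO libraries and 16226, 13498 and 18895 CPM with Molidustat, so the groups overlapped. The means were 17871 ± 2835 and 16206 ± 2699 CPM (SD, n = 3). Of the 84 members, 65 had a negative log2 fold change and the median was −0.12, beside 0.02 for all genes. By complex the medians were −0.11 for I, −0.29 for II, −0.09 for III, −0.09 for IV and −0.12 for V. The median was positive without DMSO 24 h replicate 3 (0.13) and without Molidustat 24 h replicate 2 (0.01).

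At 48 h the summed level stood apart in 2 libraries. It was 15102, 8897 and 16309 CPM in the DMSO libraries and 14239, 25811 and 15414 CPM in the Molidustat libraries. DMSO replicate 2 lay below and Molidustat replicate 2 above all other libraries, and the remaining 4 lay between 14239 and 16309 CPM. With all libraries the means were 13436 ± 3977 and 18488 ± 6369 CPM (SD, n = 3), and without replicate 2 of either group 15706 ± 853 and 14826 ± 831 CPM (SD, n = 2). As a share of counts on nuclear genes the members made up 1.67, 0.563 and 1.79% with DMSO and 1.53, 2.699 and 1.65% with Molidustat.

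**Figure D1:**
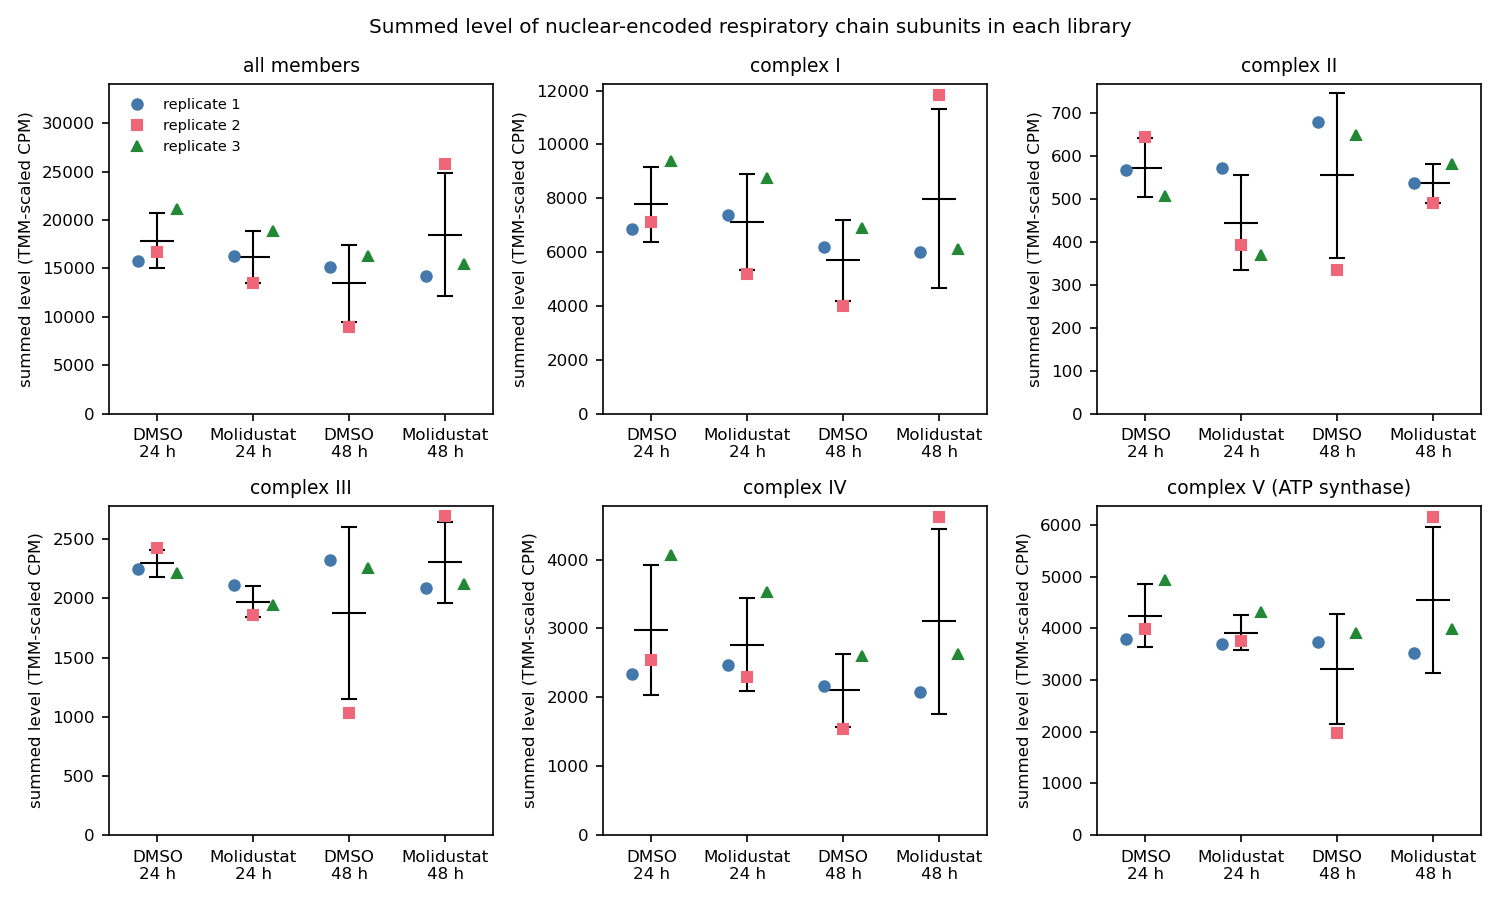
Summed TMM-scaled CPM of all members and of each complex (y axis) in the 4 groups (x axis), with a symbol per replicate and the mean ± SD (n = 3) in black. At 48 h the replicate 2 symbols lie at 8897 CPM (DMSO) and 25811 CPM (Molidustat) for all members, and the other 4 libraries lie between 14239 and 16309 CPM.

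The median log2 fold change at 48 h was 0.64 over the 84 members, of which 71 were positive, beside 0.006 for all genes. Over the same 84 members it was 0.37 without DMSO 48 h replicate 2. Without Molidustat 48 h replicate 2 it was 0.19 over the 85 members tested in that fit. With both left out, an alternative chosen after seeing the data, it was −0.021, with 39 members positive and 45 negative. By complex, the median with all libraries was 0.59 for I, −0.09 for II, 0.38 for III, 0.74 for IV and 0.70 for V. Without DMSO 48 h replicate 2 the medians were 0.33, −0.34, 0.25, 0.49 and 0.46, and without both they were −0.033, −0.28, −0.055, 0.010 and −0.0051. Complex II thus had a negative median under each of the 3 sets of libraries, over its 4 genes, none of which was called.

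**Figure D2:**
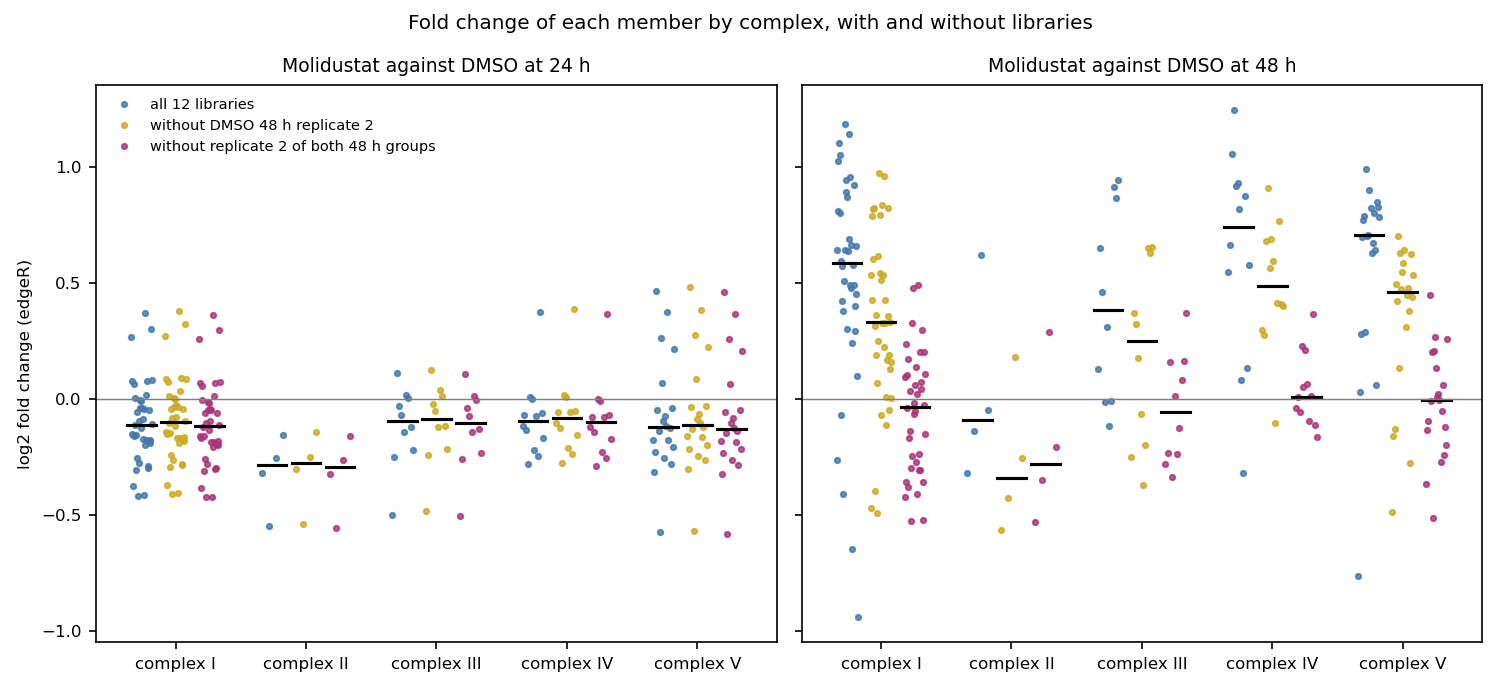
Log2 fold change, Molidustat against DMSO, of each of the 84 tested members (y axis) by complex (x axis) at 24 h and 48 h, with all 12 libraries (blue), without DMSO 48 h replicate 2 (yellow) and without replicate 2 of both 48 h groups (purple), and medians as black bars. At 48 h the median over members goes from 0.64 with all libraries to −0.021 without both.

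The same 2 libraries stood apart in most subunits. DMSO 48 h replicate 2 was the lowest of its group for 75 of 84 members, as it was for 53.0% of all genes tested, and Molidustat 48 h replicate 2 was the highest of its group for 67 members, as it was for 32.2% of all genes. Among all 12 libraries the former was the lowest for 61 members and the latter the highest for 52. At 24 h the third replicate was the highest of the DMSO group for 63 members (36.3% of all genes) and of the Molidustat group for 55 (32.3%). Pairs of members correlated across the 12 libraries with a median Pearson r of 0.56 over 3486 pairs, and of 0.52 without DMSO 48 h replicate 2. What this correlation between members rests on was not tested. COX4I1 had the highest median r with the other members (0.87) and ATP5F1A the lowest (−0.64). Without DMSO 48 h replicate 2 the order differed, with ATP5PD highest (0.86, and COX4I1 at 0.85), UQCRFS1 lowest (−0.55) and ATP5F1A at −0.36.

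**Figure D3:**
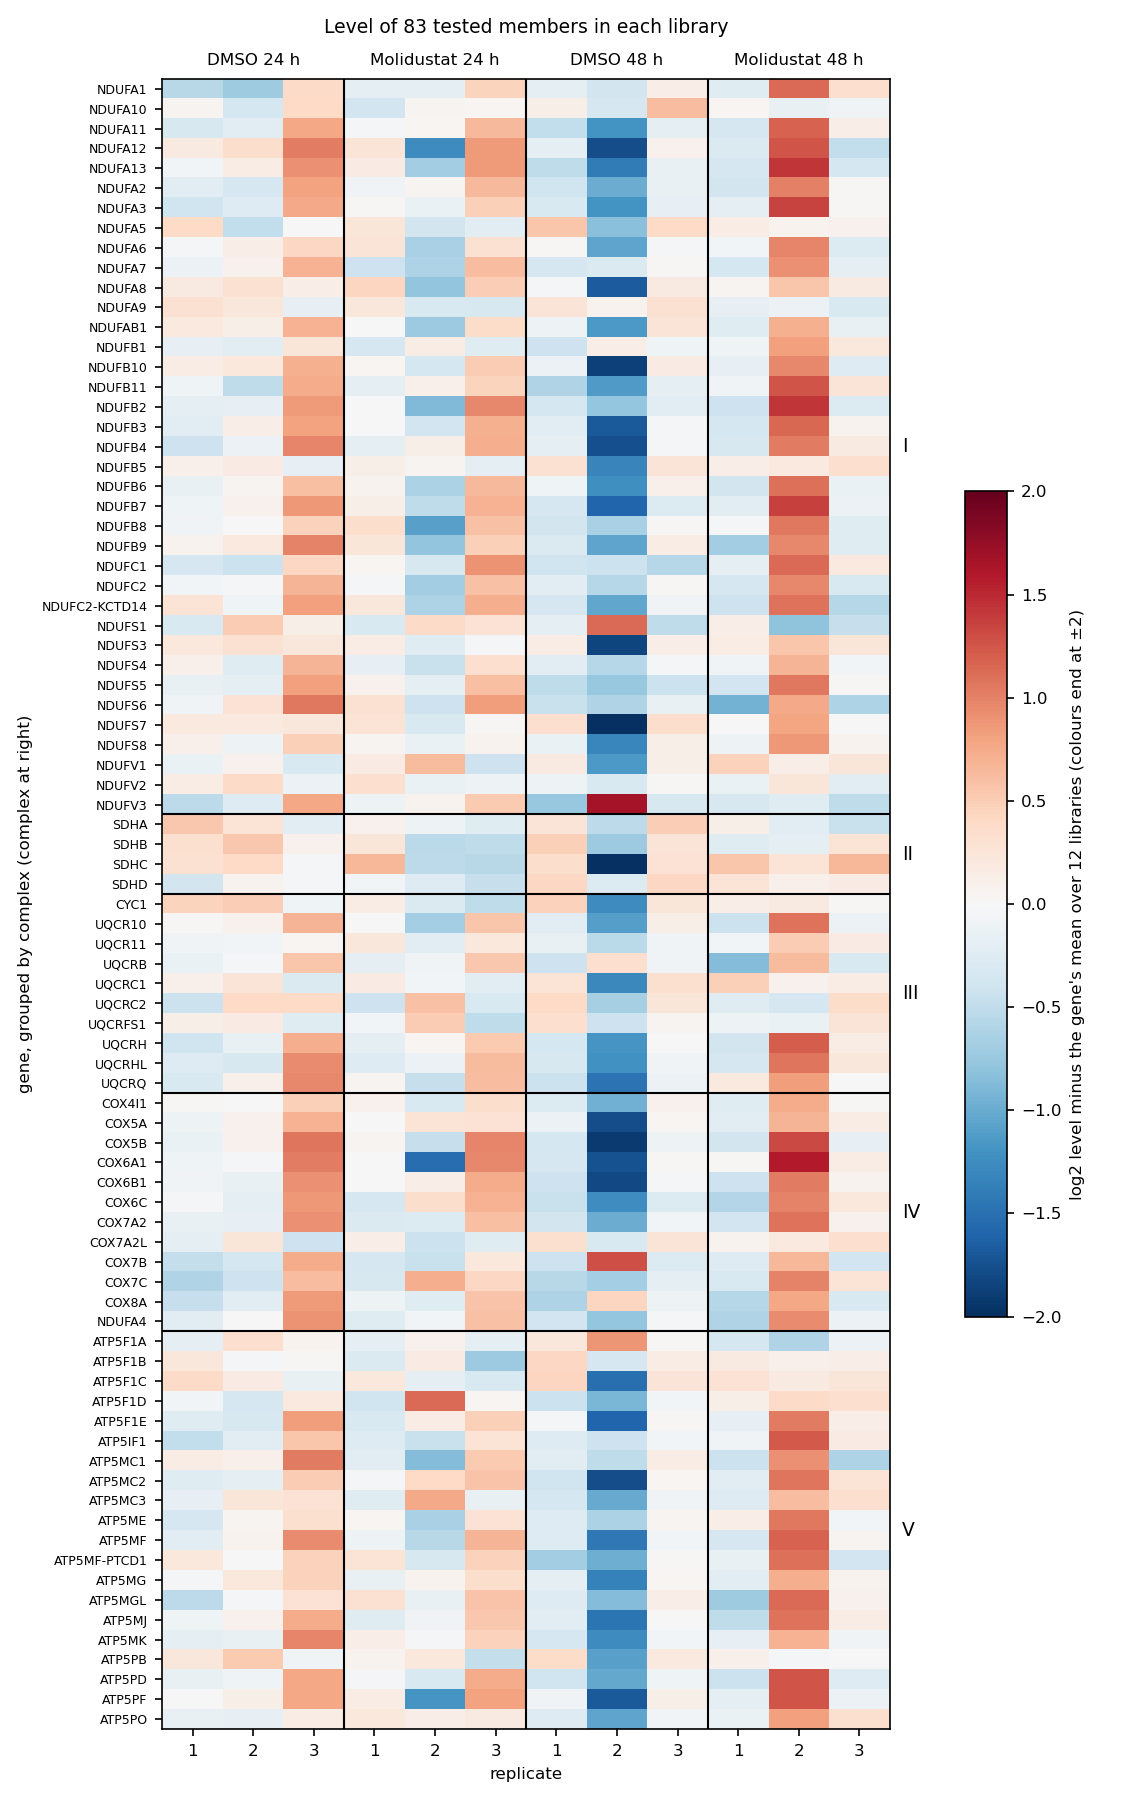
Level of 83 of the 84 tested members (rows, grouped by complex) in the 12 libraries (columns) as log2(CPM + 1) minus the gene's mean over the libraries, red above and blue below. DMSO 48 h replicate 2 is the lowest of its group in 74 rows, and Molidustat 48 h replicate 2 is the highest of its group in 66.

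Transcript length went along with part of this pattern. The members are short: the median length of their canonical transcripts (GENCODE release 44) was 760.5 nt, against 2871.5 nt for all genes tested, and 74 of the 84 lay below the latter. In Molidustat 48 h replicate 2 the members' deviations from their own means were related to length with a Spearman rho of −0.72 over the 84 members, and in replicate 3 of the DMSO and Molidustat groups at 24 h with −0.58 and −0.59. In DMSO 48 h replicate 2 rho was 0.24, and there the 42 shorter members had a median deviation of −1.14 and the 42 longer of −0.94. The other 8 libraries had rho from −0.01 to 0.47 over the members, with 0.47 and 0.37 in DMSO 48 h replicates 1 and 3 and 0.39 in Molidustat 48 h replicate 1. Over 14248 genes rho was −0.22 in Molidustat 48 h replicate 2, 0.24 in DMSO 48 h replicate 2, and −0.03 and 0.05 in replicate 3 of the DMSO and Molidustat groups at 24 h. At 48 h the shorter members had a median log2 fold change of 0.81 and the longer of 0.31. These were 0.55 and 0.16 without DMSO replicate 2, and 0.055 and −0.11 without replicate 2 of both groups. The part of length in the result was not tested.

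**Figure D4:**
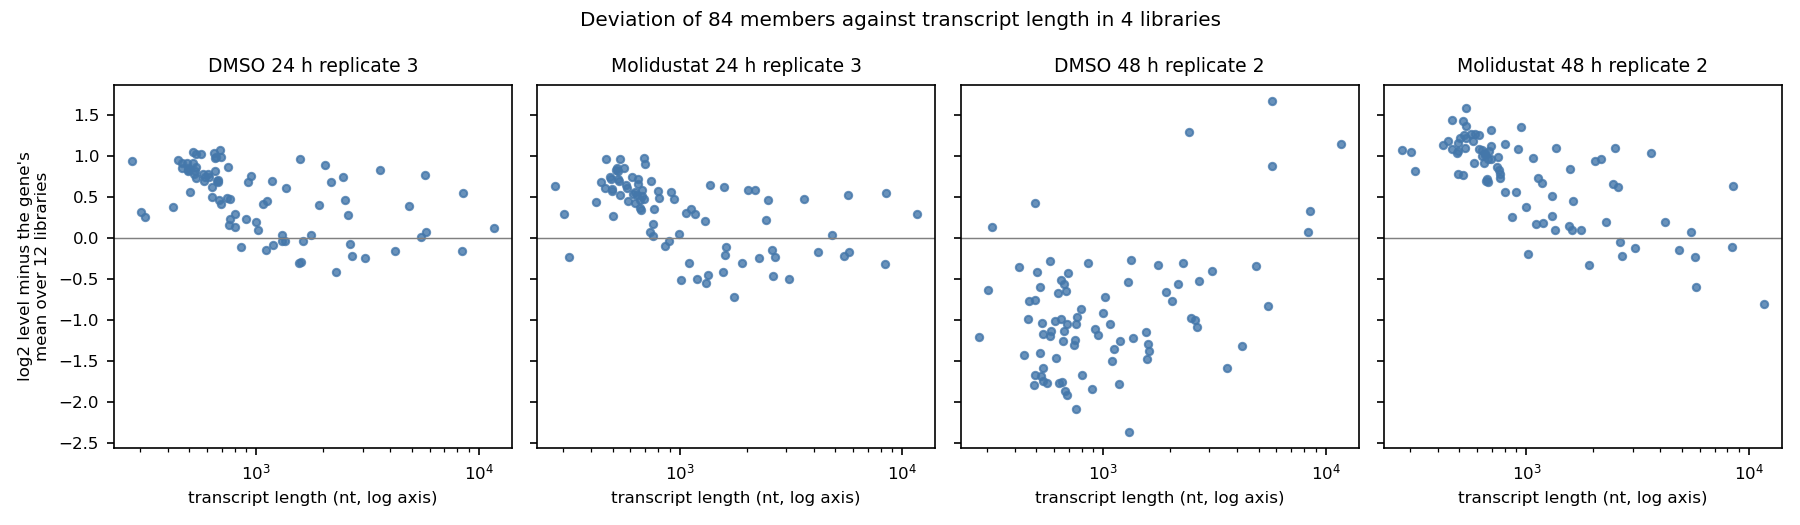
Deviation of each of the 84 members from its mean over 12 libraries on the log2 scale (y axis) against transcript length on a log axis (x axis) in 4 libraries. Shorter members lie higher in Molidustat 48 h replicate 2 (rho −0.72) and in replicate 3 of the DMSO and Molidustat groups at 24 h (−0.58 and −0.59), whereas in DMSO 48 h replicate 2 most members lie below 0.

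Complex I oxidises NADH. Of its 38 tested members, 5 were higher at an unadjusted p under 0.05 at 48 h, where 4.53% of all genes were, and all 5 are accessory subunits. Without DMSO 48 h replicate 2, NDUFB11 and NDUFC1 were the 2 members of the whole chain that were, and without both replicates 2 there were 0. NDUFB11, a membrane subunit whose gene lies at chrX:47142071-47145466 (GRCh38, minus strand), measured 51.2, 35.1 and 68.8 CPM with DMSO and 74.6, 190 and 93.8 CPM with Molidustat at 48 h. The groups did not overlap, and the fold change was 1.18 ± 0.42 on the log2 scale (edgeR adjusted p = 0.239), the largest of the complex and the smallest adjusted p of any member. It was 0.97 without DMSO 48 h replicate 2 and 0.48 without both.

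NDUFB7, an accessory subunit on the intermembrane space side, had 67.6, 27.7 and 70.3 CPM with DMSO and 73.7, 221 and 78.9 CPM with Molidustat at 48 h, which gave 1.14 ± 0.49 with all libraries, 0.84 without DMSO replicate 2 and 0.14 without both. Only replicate 2 of each group lay far from the other 4 libraries. NDUFA11, a membrane subunit, had 94.5, 57.5 and 117 CPM with DMSO and 105, 302 and 146 CPM with Molidustat, with a fold change of 1.03 ± 0.43 with all libraries, 0.79 without DMSO replicate 2 and 0.24 without both. Its groups overlapped. NDUFC1 had 94.9, 92.6 and 84.1 CPM with DMSO and 110, 274 and 143 CPM with Molidustat (0.95 ± 0.40). Here DMSO replicate 2 lay between the others of its group, and the fold change was 0.96 without that library and 0.49 without both. NDUFS5 had 35.6, 29.8 and 37.8 CPM with DMSO and 39.1, 107 and 51.9 CPM with Molidustat (0.92 ± 0.41, with 0.82 without DMSO replicate 2 and 0.30 without both), with no overlap. The edgeR adjusted p was 0.32 for NDUFA11, 0.322 for NDUFB7, 0.32 for NDUFC1 and 0.348 for NDUFS5.

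The 7 core subunits of complex I that are encoded in the nucleus and carry the flavin and the iron-sulfur clusters were not called, and none had an unadjusted p under 0.05. Their median fold change was −0.11 at 24 h and 0.40 at 48 h. At 48 h it was 0.0068 without DMSO replicate 2 and −0.025 without both. NDUFS7, the core subunit of the last iron-sulfur cluster, measured 122, 123 and 126 CPM with DMSO and 129, 86.8 and 109 CPM with Molidustat at 24 h. At 48 h it had 135, 24.5 and 138 CPM with DMSO and 107, 185 and 107 CPM with Molidustat, and DMSO replicate 2 stood 2.45 below the mean of its group's other libraries on the log2 scale. Its fold change of 0.40 at 48 h became −0.05 without that library and −0.36 without both replicates 2.

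NDUFS3, a core subunit of the peripheral arm, had 143, 35.1 and 141 CPM with DMSO at 48 h and 142, 189 and 152 CPM with Molidustat (0.58 ± 0.40, and 0.17 without DMSO 48 h replicate 2). At 24 h it was the only member whose groups did not overlap, with 150, 160 and 151 CPM in DMSO and 142, 108 and 125 CPM in Molidustat (−0.30 ± 0.40, edgeR adjusted p = 0.999). NDUFS1, the largest core subunit by protein size, went the other way in the same library, with 98.8, 250 and 78.9 CPM with DMSO and 124, 64.3 and 81.7 CPM with Molidustat at 48 h. Its fold change was −0.64 ± 0.43 with all libraries and 0.01 without DMSO 48 h replicate 2.

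For 3 further core subunits the values at 24 h and 48 h were 0.30 and 0.45 for NDUFV1, which binds the flavin and NADH, −0.11 and 0.10 for its partner NDUFV2, and −0.18 and 0.66 for NDUFS8. Without DMSO replicate 2 the values at 48 h were 0.13, 0.0035 and 0.33. The pseudogene of NDUFV2 alone held 6209 counts beside 43120 on the gene, so its level is uncertain. The accessory subunit NDUFV3 had the lowest fold change of complex I at 48 h (−0.94 ± 0.53). With DMSO it had 50.4, 275 and 68.3 CPM and with Molidustat 68.8, 72.5 and 59.9 CPM. Without DMSO replicate 2 the value was 0.16. At 24 h the extremes of the complex were NDUFC1 (0.37 ± 0.40) and NDUFAB1, the mitochondrial acyl carrier protein (−0.42 ± 0.41).

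**Figure D5:**
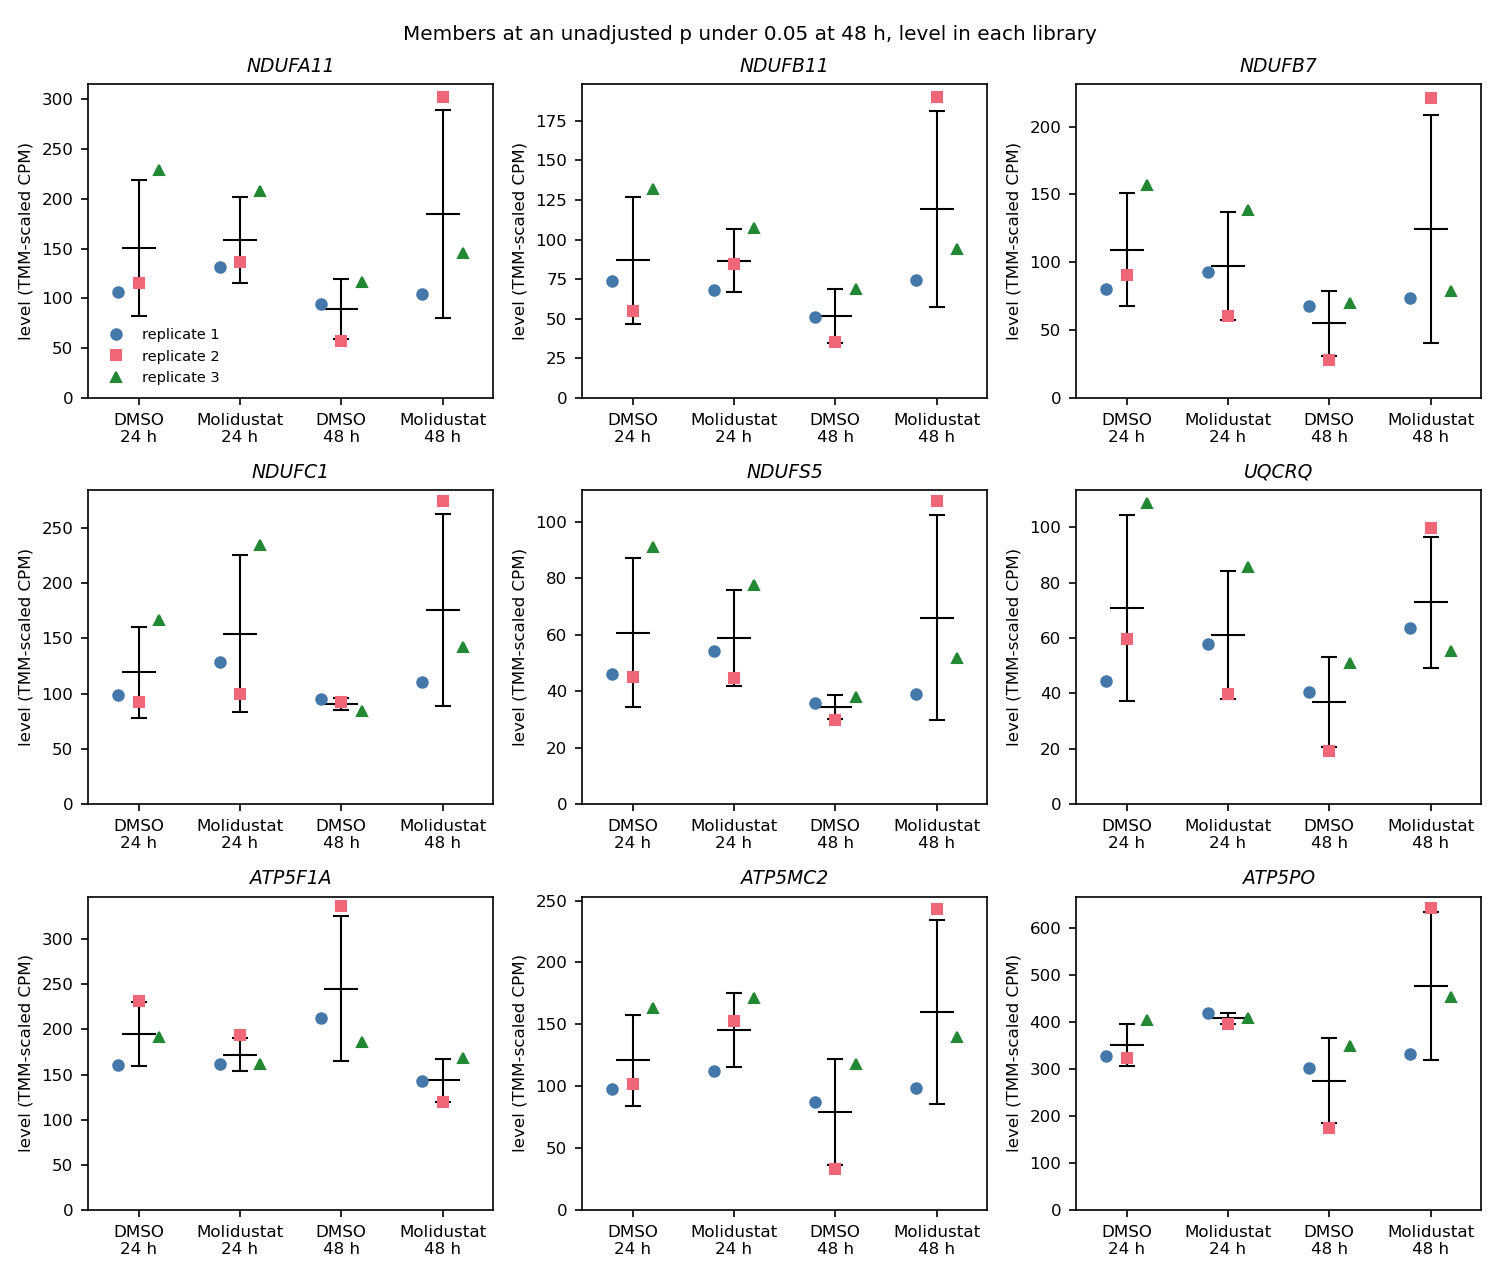
Level in TMM-scaled CPM (y axis) of the 9 members at an unadjusted p under 0.05 at 48 h in the 4 groups (x axis), with a symbol per replicate and the mean ± SD (n = 3) in black. In the 8 members higher with Molidustat the replicate 2 library is the highest of the Molidustat 48 h group, as NDUFB11 shows with 190 CPM against 74.6 and 93.8.

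Complex II is succinate dehydrogenase, the only complex with no subunit from mitochondrial DNA, and its 4 genes all had negative fold changes at 24 h. SDHB, its iron-sulfur subunit, measured 273, 316 and 232 CPM with DMSO and 259, 150 and 152 CPM with Molidustat at 24 h. The groups overlapped, with a fold change of −0.55 ± 0.36 (edgeR adjusted p = 0.999). At 48 h SDHB had 305, 132 and 262 CPM with DMSO and 184, 191 and 264 CPM with Molidustat (−0.14 ± 0.36, and −0.43 without DMSO replicate 2). SDHA, the flavoprotein that binds succinate, had 106, 87.4 and 62.2 CPM with DMSO and 76.7, 67.5 and 61.3 CPM with Molidustat at 24 h (−0.32 ± 0.33). At 48 h it had 86.8, 50.04 and 102 CPM with DMSO and 78.6, 61.8 and 53.0 CPM with Molidustat, which was −0.32 ± 0.33 with all libraries and −0.56 without DMSO replicate 2. The 4 pseudogenes of SDHA held 801 counts beside 4531 on the gene.

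Both membrane anchors of complex II were measured too. SDHC had 54.4, 7.45 and 52.1 CPM with DMSO at 48 h and 62.9, 51.5 and 68.0 CPM with Molidustat, and no member lay farther below its group in DMSO replicate 2, at −2.76 on the log2 scale. Its fold change was 0.62 ± 0.51 with all libraries and 0.18 without that library. SDHD had 234, 145 and 233 CPM with DMSO and 212, 187 and 195 CPM with Molidustat at 48 h, which was −0.05 ± 0.29 with all libraries and −0.25 without DMSO replicate 2, and −0.16 ± 0.29 was measured at 24 h.

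Complex III passes electrons from ubiquinol to cytochrome c. CYC1, its cytochrome c1, had 974, 1009 and 672 CPM with DMSO and 796, 582 and 502 CPM with Molidustat at 24 h. The groups overlapped and the fold change was −0.50 ± 0.40 (edgeR adjusted p = 0.999). With DMSO 48 h replicate 2 out of the fit and its estimate of the spread, at 24 h CYC1 alone was lower by unadjusted p under 0.05 (1 of 86 members, against 2.85% of all genes). Without replicate 2 of both 48 h groups, 0 of 84 members were (3.15% of all genes). At 48 h CYC1 measured 988, 297 and 841 CPM with DMSO and 786, 812 and 728 CPM with Molidustat. Its fold change of 0.13 with all libraries became −0.25 without DMSO replicate 2.

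UQCRQ, a small membrane subunit, had the highest fold change of complex III at 48 h, with 40.7, 19.2 and 50.8 CPM for DMSO and 63.6, 100 and 55.4 CPM for Molidustat. The groups did not overlap (0.94 ± 0.43, edgeR adjusted p = 0.365), and the value was 0.65 without DMSO replicate 2 and 0.37 without both. UQCRC2, a core protein, had the lowest at −0.12 ± 0.39, or −0.37 without DMSO replicate 2. UQCR11, the smallest subunit of the complex, had the highest at 24 h (0.11 ± 0.28), and at 48 h its groups did not overlap, with 121, 91.6 and 127 CPM for DMSO and 129, 191 and 150 CPM for Molidustat (0.46 ± 0.29, and 0.32 without DMSO replicate 2). UQCRH, the hinge protein, and its near-identical copy UQCRHL can share reads, and had 0.91 and 0.87 at 48 h, 0.65 and 0.63 without DMSO replicate 2, and 0.081 and 0.16 without both.

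Complex IV reduces oxygen and is the complex whose isoforms are known to be exchanged in hypoxia. COX4I1, the common form of subunit 4, measured 695, 679 and 948 CPM with DMSO and 721, 554 and 871 CPM with Molidustat at 24 h (−0.11 ± 0.37). At 48 h it had 566, 348 and 727 CPM with DMSO and 577, 1136 and 691 CPM with Molidustat (0.55 ± 0.37, with 0.30 without DMSO replicate 2 and −0.039 without both). COX4I2, the form known to be induced by HIF-1 in other cells, had 4 counts over all 12 libraries, 3 of them with Molidustat at 24 h and 1 with DMSO at 48 h, so no difference was detectable at this depth. A count of 3 corresponds to 0.185 CPM over the Molidustat 24 h libraries.

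NDUFA4 and its hypoxia-inducible paralog NDUFA4L2 form another such pair. NDUFA4 had 378, 441 and 818 CPM with DMSO and 374, 426 and 660 CPM with Molidustat at 24 h, and 336, 258 and 435 CPM with DMSO and 289, 846 and 405 CPM with Molidustat at 48 h. The fold changes were −0.17 ± 0.43 and 0.58 ± 0.43, the latter 0.40 without DMSO replicate 2 and −0.16 without both, and its pseudogenes held 4334 counts beside 27088. NDUFA4L2 had 3, 6 and 0 counts with DMSO and 3, 0 and 1 with Molidustat at 24 h, and 0, 0 and 0 counts with DMSO and 0, 5 and 0 with Molidustat at 48 h. These counts were too few to compare.

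COX6A1 had the highest fold change of any member at 48 h, 1.24 ± 0.61 (edgeR adjusted p = 0.397). It measured 38.5, 13.8 and 49.7 CPM with DMSO and 49.4, 148 and 54.5 CPM with Molidustat, so the groups overlapped, and the value was 0.91 without DMSO replicate 2 and 0.23 without both. COX7B had the lowest of the complex (−0.32 ± 0.48) and was, like NDUFV3 and NDUFS1, high in DMSO replicate 2, with 56.3, 185 and 62.0 CPM against 62.7, 119 and 57.3 CPM with Molidustat. Without that library its fold change was 0.41, and without both replicates 2 it was 0.01. At 24 h COX7C (0.37 ± 0.42) and COX6A1 (−0.28 ± 0.60) were the extremes.

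Of the 20 genes in the list of isoform pairs, 13 were tested, and 12 had a positive fold change at 48 h (8 without both replicates 2). Their median at 48 h was 0.70 with all libraries, 0.47 without DMSO replicate 2 and 0.050 without both. COX6B1 had 0.01 at 24 h and 0.92 at 48 h, COX7A2 −0.22 and 0.82, COX7A2L, known for its part in supercomplexes, −0.07 and 0.08, and COX8A −0.06 and 0.13. At 48 h without DMSO replicate 2 these 4 had 0.56, 0.59, −0.10 and 0.41, and without both replicates 2 they had 0.05, 0.07, −0.10 and −0.11. The forms known from heart, muscle or testis were scarcely counted. COX6A2, COX7A1, COX7B2 and COX8C had 0 counts in all 12 libraries, where 3 counts would be 0.0516 CPM. COX6B2 had 40 counts, none in the DMSO libraries at 24 h and 7, 6 and 6 in the DMSO libraries and 9, 7 and 0 in the Molidustat libraries at 48 h.

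Complex V makes ATP. The 3 genes for its c subunit, ATP5MC1, ATP5MC2 and ATP5MC3, encode the same mature protein. ATP5MC2 measured 86.9, 33.0 and 118 CPM with DMSO and 98.4, 243 and 140 CPM with Molidustat at 48 h, with overlap. Its fold change of 0.99 ± 0.44 (edgeR adjusted p = 0.342), the highest of the complex, was 0.63 without DMSO replicate 2 and 0.21 without both. ATP5MC1 had the lowest fold change of any member at 24 h (−0.57 ± 0.45), with 175, 169 and 326 CPM for DMSO and 137, 86.2 and 228 CPM for Molidustat, and 0.29 ± 0.45 at 48 h, where it had 0.13 without DMSO replicate 2 and −0.51 without both. ATP5MC3 had 0.07 at 24 h and 0.70 at 48 h, the latter 0.47 without DMSO replicate 2.

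ATP5PO, the stalk subunit known as OSCP, had 303, 175 and 348 CPM with DMSO and 331, 643 and 453 CPM with Molidustat at 48 h (0.78 ± 0.34, edgeR adjusted p = 0.33), and 0.53 without DMSO replicate 2 and 0.26 without both. ATP5F1D, the delta subunit of the catalytic head's stalk, was highest at 24 h (0.47 ± 0.38), where Molidustat replicate 2 had 220 CPM and the other libraries of both groups 74.9 to 114. At 48 h its groups did not overlap, with 74.0, 52.2 and 95.8 CPM for DMSO and 108, 130 and 126 CPM for Molidustat (0.70 ± 0.38, with 0.50 without DMSO replicate 2 and 0.45 without both).

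ATP5F1A, the alpha subunit of the catalytic head, was at 48 h the only lower member by unadjusted p under 0.05. Its gene lies at chr18:46080248-46104334 (GRCh38, minus strand). It had 213, 336 and 186 CPM with DMSO and 143, 120 and 168 CPM with Molidustat, and the groups did not overlap. The fold change was −0.76 ± 0.31 (edgeR adjusted p = 0.3), and it was −0.48 without DMSO replicate 2 and −0.37 without both. At 24 h it was −0.18 ± 0.31. In this gene DMSO replicate 2 was the highest library of all, whereas for most other members it was the lowest.

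By separation of the groups, 0 members were higher and 1 (NDUFS3) lower with Molidustat at 24 h, against 7.26% and 5.02% of all genes. At 48 h 7 were higher (NDUFB11, NDUFB7, NDUFC1, NDUFS5, UQCR11, UQCRQ and ATP5F1D) and 2 lower (ATP5F1A and NDUFA9, a complex I accessory subunit), which is 8.33% and 2.38% of members, against 9.96% and 8.02% of all genes. NDUFA9 had 407, 359 and 422 CPM with DMSO and 303, 314 and 277 CPM with Molidustat at 48 h. Its fold change kept its negative sign in 22 alternatives, between −0.52 and −0.27, and it was not called. NDUFA9 was 1 of 38 members whose 48 h fold change kept its sign in every alternative. At an unadjusted p under 0.05 and without DMSO 48 h replicate 2, 2 of 86 members were higher at 48 h (NDUFB11 and NDUFC1, 2.33% against 3.68% of all genes) and 0 lower (2.92% of all genes). Without replicate 2 of both groups 0 members were higher and 0 lower in edgeR, against 3.54% and 2.27% of all genes.

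The test of the difference between the effects at 48 h and 24 h called 0 members (0% of all genes) and had 0 at an unadjusted p under 0.05 (6.78% of all genes). The median of this difference was 0.73 with all libraries, 0.47 without DMSO 48 h replicate 2 and 0.07 without replicate 2 of both 48 h groups. Between the DMSO groups at 48 h and 24 h 0 members were called (0.00701% of all genes) and 0 had an unadjusted p under 0.05 (8.14%), with a median of −0.49 with all libraries and −0.29 without DMSO 48 h replicate 2. Between the Molidustat groups the counts were 0 and 0 (0% and 4.58% of all genes), with a median of 0.20 with all libraries and −0.22 without both. These were edgeR tests, and DESeq2 and limma-voom also called 0 members in each.

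Genes that build or feed the complexes were looked at as lists chosen with earlier results of these data known. The assembly factors of complex I (19 genes), II (4), III (9), IV (23) and V (5) were all tested and none was called at either time. By unadjusted p under 0.05 in edgeR, 2 complex I and 2 complex IV factors were lower at 24 h (1.52% of all genes were). The complex I factors lower at 24 h numbered 5 of 19 without DMSO 48 h replicate 2 (2.85% of all genes) and 6 of 19 without both replicates 2 (3.15%). In each case 1 factor of complex III and 2 of complex IV were also lower. At 48 h 1 factor of complex I, 1 of III, 2 of IV and 2 of V were lower (8.81% of all genes were) and 1 of complex II was higher (4.53% of all genes). Without both replicates 2 there were 1 lower of complex I (2.27% of all genes) and 1 higher of complex II (3.54%). The medians at 48 h, for complexes I to V, were −0.02, 0.60, 0.11, 0.20 and 0.14 with all libraries. They were −0.32, 0.50, −0.041, 0.028 and −0.16 without DMSO replicate 2, and −0.21, 0.50, −0.073, −0.18 and −0.079 without both. The lowest single value at 48 h was that of LRPPRC, which stabilises mitochondrial messenger RNA (−3.20 ± 0.94, edgeR adjusted p = 0.203), and it was −0.47 without DMSO replicate 2 and −0.18 without both. SDHAF1, which helps insert the iron-sulfur clusters of complex II, had 0.93 ± 0.45 at 48 h and 1.21 without both.

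The 13 subunits encoded in mitochondrial DNA had a median of −0.30 at 24 h and 0.25 at 48 h, and at 48 h −0.020 without DMSO replicate 2 and −0.088 without both replicates 2, with none called. By unadjusted p under 0.05 in edgeR, 1 of the 13 was lower at each time, against 1.52% of all genes at 24 h and 8.81% at 48 h. Without DMSO 48 h replicate 2 there were 2 at 24 h (2.85% of all genes) and 0 at 48 h (2.92%). MT-ATP6 (−0.96 ± 0.41) was lowest at 24 h and MT-ATP8 (−1.41 ± 0.49, edgeR adjusted p = 0.233) at 48 h, and both encode parts of complex V. Without DMSO replicate 2 the lowest value of the 13 at 48 h was −0.70. Of 12 genes of the mobile carriers and of coenzyme Q synthesis none was called, with 1 higher at 24 h (3.73% of all genes) and 1 lower at 48 h (8.81%) by unadjusted p under 0.05 in edgeR. COQ7, a hydroxylase of that pathway, had 1.94 ± 0.67 at 24 h (edgeR adjusted p = 0.603), and COQ3, a methyltransferase, had −1.16 ± 0.36 at 48 h (edgeR adjusted p = 0.208) and −0.73 without both. The medians of these 12 genes were −0.10 at 24 h and 0.17 at 48 h, the latter 0.061 without DMSO replicate 2 and −0.075 without both. Among 12 regulators of mitochondrial biogenesis none was called, 1 was lower at 24 h (1.52% of all genes) and 2 at 48 h (8.81%) by unadjusted p under 0.05 in edgeR, and the medians were −0.24 and −0.31, the latter −0.54 without DMSO 48 h replicate 2. Of the 12, 4 had a positive fold change at 24 h and 3 at 48 h. PPARGC1A, which encodes PGC-1α, had the highest fitted value at 24 h (3.37 ± 1.73, edgeR adjusted p = 0.989) on very few counts, with 0, 0.385 and 0 CPM for DMSO and 0, 1.82 and 1.73 CPM for Molidustat. At 48 h it had −0.13 ± 1.41 with all libraries, 1.33 without DMSO replicate 2 and 1.53 without both. PPRC1, a coactivator of the PGC-1 family, had −1.40 ± 0.46 at 48 h and −1.46 without both, while PPARGC1B had −2.46 ± 1.36 at 24 h and −2.72 ± 1.39 at 48 h, the latter being −1.42 without DMSO replicate 2 and −1.13 without both. Beside these, 78 mitochondrial ribosomal protein genes had medians of −0.27 at 24 h and 0.09 at 48 h, and the latter was −0.16 without DMSO 48 h replicate 2 and −0.25 without both. For 81 cytosolic ones the medians were −0.10 and 0.20, and at 48 h, over 82 of them tested, 0.17 and −0.064 under the same omissions.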

How the data were processed

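Reads of 12 QIAseq UPX 3′ libraries were trimmed, aligned and counted by the authors, whose submitted processing notes name cutadapt 1.9.1, STAR 2.7.9a, GRCh38, HTSeq 0.11.2 and DESeq2 1.26.0. The authors deposited raw read counts for each gene, not normalized. The annotation release, strand setting and use of molecular identifiers are not given in the sources used here, so counts can include PCR copies, and floors cover counting error only. The 5 summary lines of each library name no gene and were left out. Genes were named from GENCODE release 44 (60437 of 60666 identifiers).

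Low genes were removed (filterByExpr, at least 10 counts and a total of 15), and counts were scaled by TMM and fitted over all 12 libraries with edgeR 4.0.16 in R 4.3.3, with Benjamini-Hochberg adjustment over 14274 genes. DESeq2 1.42.0 and limma 3.58.1 were alternatives, as were other scalings and filters, each time point alone, a replicate block and each library left out. The test was also run on simulated counts, and no result of that run is given or used here. Log2 levels used a pseudocount of 1 and ratios to a group's other libraries 0.5. Genes were named by rule: members called, the highest and lowest fold change per complex and time, isoform pairs, the complex I core, members at an unadjusted p under 0.05 at both times, and those farthest from their group in DMSO 48 h replicate 2 (3 above, 3 below). The members at an unadjusted p under 0.05 at 48 h or without overlap were added after their values were seen. The members and lists were chosen with earlier results of these data known. Figures were drawn with matplotlib 3.10.9. The values of 1 member are not reported here singly, though it is included in counts and medians.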

Additional observations from a re-analysis of the deposited data

How the results depend on the processing

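No member was called in any of the 5 comparisons under any alternative run (0 members in each, and 0 with each library left out in turn). By unadjusted p under 0.05, 8 members were higher and 1 lower at 48 h (4.53% and 8.81% of all genes). They were 3 and 2 with limma-voom (8.5% and 6.24%), 21 of 87 higher without a filter (3.67%), 2 and 0 with each time point alone (3.89% and 5.71%), 0 lower with total counts (5.23%), and 0 to 24 higher and 0 to 2 lower with each library left out (3.2% to 4.67% and 2.92% to 10.5% of all genes). The count higher was 24 without Molidustat 48 h replicate 1 (3.96%) and 0 without its replicate 2 (3.2%). It was 14 without DMSO 48 h replicate 3 (4.67%), 2 without replicate 1 or 2 of that group (4.23% and 3.68%), 5 without DMSO 24 h replicate 2 and 4 without Molidustat 24 h replicate 1 (4.07% each). Lower members at 24 h numbered 0 or 1 (1.03% to 3.38% of all genes).

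The median at 48 h (0.64) ranged from 0.19 to 0.88 with each library left out, was 0.25 with limma-voom, and was −0.021 without DMSO and Molidustat 48 h replicate 2 and −0.020 without replicate 2 of all 4 groups, both chosen after seeing the data. The median at 24 h (−0.12) ranged from −0.27 to 0.13 with each library left out. Without both replicates 2, 38 of the 84 members had the other sign at 48 h, and without DMSO 48 h replicate 2 alone 13. Counting NDUFA4 with complex I gave complex medians of 0.58 (I) and 0.82 (IV) at 48 h.

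Whether replicate numbers pair the samples was not settled. Deviations of same-numbered DMSO and Molidustat libraries correlated at −0.07 to 0.14, and those of differently numbered ones at −0.12 to 0.08. The highest value, 0.14, was that of replicate 3 at 24 h. Such low correlations over all genes cannot exclude a pairing. With the replicate block, 0 members were called, 8 were higher and 1 lower at 48 h by unadjusted p under 0.05, and the medians were −0.12 and 0.68. The cause of these shifts was not tested.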
